A study of Mus musculus with 2 samples.

Results

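The genes described are 10 purinergic genes among 16263 genes with a value in both deposited tables: the ATP-gated channels P2rx4 and P2rx7, the nucleotide receptors P2ry2, P2ry6, P2ry12 and P2ry14, the adenosine receptors Adora2a and Adora2b, and the ectonucleotidases Entpd1 and Nt5e. They were chosen by symbol, with earlier results of these data known, and all 10 had a row in both tables. Transcripts were sequenced from bone marrow-derived macrophages of mice labelled SIRPα-KO (genotype SIRPalpha-/-) and of wild-type (WT) mice, both labelled C57BL/6. Per the labels, bone marrow was cultured with M-CSF-conditioned medium, which drives macrophage differentiation, over 5 days. Both cultures then received IFNγ at 20 ng/ml and LPS at 100 ng/ml for 6 h with a reagent named mCD47.ex present, so no untreated cells stand beside them. RNA came from a pool of 5 mice per genotype, which leaves 1 library per genotype, no replicate error and no p-value. The ages of the mice and the targeted allele are not given in the labels.

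SIRPα is a receptor of myeloid cells that restrains them when it binds CD47. Nucleotides leave stressed, dying or activated cells and act on neighbouring cells as signals. ATP opens P2X cation channels, and ATP, ADP, UTP, UDP or UDP-sugars activate P2Y receptors, which are coupled to G proteins. On the cell surface CD39, encoded by Entpd1, removes phosphates from ATP and ADP to give AMP, and CD73, encoded by Nt5e, turns AMP into adenosine. Adenosine then acts on the receptors encoded by Adora2a and Adora2b, which raise cyclic AMP and are known for restraining inflammatory cytokine output of macrophages.

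The library labelled SIRPα-KO had lower transcript levels of Adora2b, Entpd1 and P2ry6, with the plain FPKM ratio 6.83-fold, 4.37-fold and 2.81-fold lower than in WT. FPKM counts fragments relative to transcript length and to all mapped fragments of a library, so levels of different genes can be set side by side. P2rx4, P2rx7, P2ry14 and Adora2a had nearly equal levels in both libraries. P2ry2 and P2ry12 had somewhat higher values in the library labelled SIRPα-KO, short of 2-fold, and Nt5e was at or near 0 in both. A gene was kept when it reached 1 FPKM in at least 1 library, and it was called when the values, each with 1 FPKM added, differed at least 2-fold. Of the 10 genes 9 were kept, of which 3 were called lower, 0 higher and 6 neither. Among all 10092 genes kept, 4.31% were called lower, 3.43% higher and 7.74% either way. The set was chosen with earlier results of these data known, so no excess is read from these shares. The median log2 ratio of SIRPα-KO over WT was -0.06 over the 9 genes and 0.06 over all genes kept.

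**Figure D1:**
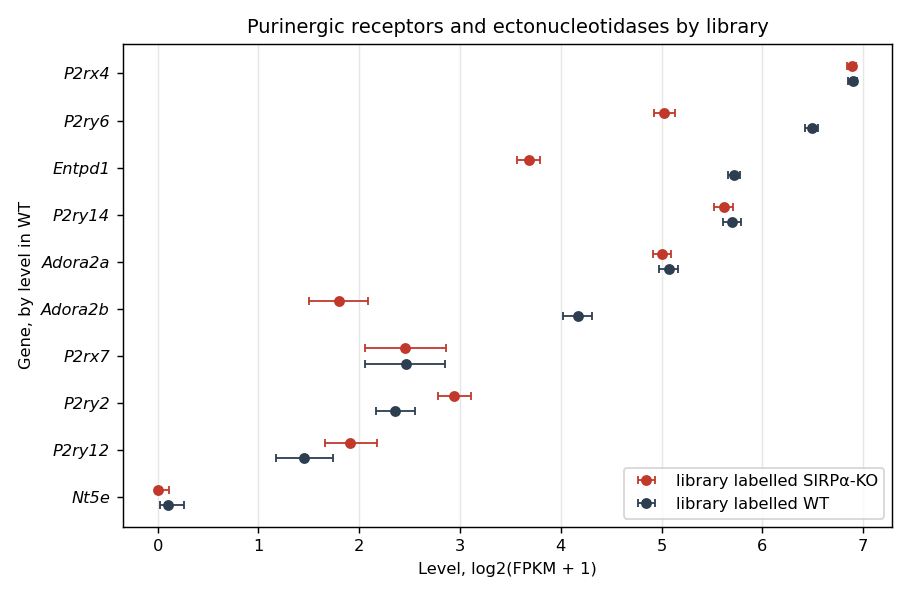
Level of each purinergic gene as log2(FPKM + 1) on the horizontal axis, with genes down the page in the order of their WT level. Red points stand for the library labelled SIRPα-KO, dark points for the library labelled WT, and bars are 95% Poisson intervals from estimated reads; the red points of P2ry6, Entpd1 and Adora2b lie far left of the dark ones.

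The deposited values correspond to about 11200000 reads in the library labelled SIRPα-KO and 11250000 in WT. Sirpa, the targeted gene, was at 71.5 FPKM in the library labelled SIRPα-KO and 153.9 FPKM in WT, so its transcript was lower but still present, and the library is called by its label throughout. Macrophage markers summed to 10587 FPKM in SIRPα-KO and 10582 FPKM in WT, with 0 of 7 called and none at 0. Neutrophil markers summed to 191.7 FPKM in SIRPα-KO and 418 FPKM in WT, with 5 of 7 lower and none at 0. Megakaryocyte and platelet markers summed to 178 and 54.3 FPKM in the same order of libraries, with 1 of 5, Pf4, higher and none at 0. Of 6 dendritic cell markers 3 were kept, 2 of them higher and 1 lower, with sums of 41.6 FPKM in SIRPα-KO and 36.7 FPKM in WT, and Cd209a was listed at 0 in SIRPα-KO. Markers of T and NK cells, B cells, mast cells, stroma and microglia summed to between 1.28 and 11.99 FPKM in SIRPα-KO and between 3.21 and 13.04 FPKM in WT, with 0 called in each list and with Cd3e, Nkg7 and Ncr1 listed at 0 in WT. The pools also differed in sex-linked RNA: Xist was at 0.91 FPKM in SIRPα-KO and 47.5 FPKM in WT, whereas the Y-linked gene Eif2s3y was at 21.4 FPKM in SIRPα-KO and listed at 0 in WT. None of the 10 purinergic genes is on a sex chromosome. The part of these differences in the results was not tested, and sex and genotype cannot be told apart.

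Of the adenosine receptors, Adora2b, the low-affinity adenosine receptor, had the lowest ratio of the set. Adora2b was at 2.49 FPKM in the library labelled SIRPα-KO and at 17.0 FPKM in WT. These values stand for about 51.5 and 353 reads, the fewest among the called genes. The plain log2 ratio was -2.77 with a 95% interval of -3.24 to -2.36, an exact binomial interval on estimated reads that covers counting error only and not differences between mice or cultures. With 1 FPKM added the log2 ratio was -2.37, and 41 of the 10092 genes kept (0.406%) had a ratio as low or lower. In pooled cells of this kind, fewer cells carrying a transcript and less of it per cell cannot be told apart.

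Adora2a, the high-affinity adenosine receptor, was at 31.1 FPKM in the library labelled SIRPα-KO and 32.6 FPKM in WT. Its plain log2 ratio of -0.07 had a counting interval of -0.20 to 0.07, so a difference of Adora2b's size lies outside it. The 2 receptors, which both couple to the G protein that stimulates adenylyl cyclase, therefore stood in different proportions. Adora2a exceeded Adora2b 12.5-fold in SIRPα-KO and 1.92-fold in WT, both in FPKM. Their summed level was 33.6 FPKM in SIRPα-KO and 49.6 FPKM in WT.

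The other adenosine receptors were scarce. Adora3, which inhibits adenylyl cyclase, was at 1.05 FPKM in SIRPα-KO and 2.76 FPKM in WT, a log2 ratio with the pseudocount of -0.88 that was not called. Adora3 stood for about 10.6 and 27.9 reads, and 19.6% of its 50-base words also occur in other genes, mostly in Tmigd3, so its value is uncertain. Adora1 was at 0.02 FPKM in SIRPα-KO and listed at 0 in WT.

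Among the ectonucleotidases, Entpd1, which encodes CD39, was at 11.8 FPKM in the library labelled SIRPα-KO and 51.7 FPKM in WT. About 559 and 2454 reads stand behind these values. The plain log2 ratio was -2.13 with a counting interval of -2.26 to -1.99. With 1 FPKM added the ratio was -2.04, and 69 of the genes kept (0.684%) were as low or lower. Entpd1 was the third most abundant gene of the set in WT and the fifth in SIRPα-KO.

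Nt5e, which encodes CD73, was listed at 0 in the library labelled SIRPα-KO and at 0.07 FPKM in WT, where it stood for about 3.15 reads. The 95% Poisson interval reached 0.0824 FPKM in SIRPα-KO, above the WT value, so no ratio is given and no difference was detectable at this depth. Nt5e was the 1 gene of the set that did not reach 1 FPKM in either library, and the enzyme that completes the route to adenosine was thus barely sampled in both.

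Other enzymes of nucleotide breakdown were mostly short of 2-fold with 1 FPKM added. Of 13 listed ectonucleotidases with a row 8 were kept, with 1 higher, 0 lower and a median log2 ratio of -0.26. The higher gene, Enpp2, was at 1.93 FPKM in SIRPα-KO and 0.32 FPKM in WT, from about 59.3 and 9.88 reads. Enpp2 encodes autotaxin, which is known mainly for making lysophosphatidic acid rather than for clearing ATP. Enpp2 did not reach 5 FPKM in either library, so its call is lost with that minimum. Cd38, which breaks down NAD at the cell surface, was the most abundant of the list, at 114.9 FPKM in SIRPα-KO and 95.4 FPKM in WT. The level of Entpd1 was 0.103 times that of Cd38 in SIRPα-KO and 0.542 times in WT. Acpp, a phosphatase that can act on AMP, was at 0.98 FPKM in SIRPα-KO and 2.62 FPKM in WT and was not called. By the plain FPKM ratio Acpp was 2.67-fold and Enpp1 2.18-fold lower in SIRPα-KO, and Enpp2 was 6.03-fold higher.

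The promoters of Adora2b and Entpd1 are shown because these genes had the lowest ratios of the set, and that of P2rx4 because it was the most abundant gene and nearly equal in both libraries. The sequences are those of RefSeq on build GRCm38.p6 and run from 250 bases before to 50 bases after an annotated start. The table held 14 promoters of 8 of the 10 genes, with none for P2ry6 or Adora2a. All 4 shown lie on the plus strand, and capitals mark the GC box GGGCGG and the core TGACG of the cAMP response element, on either strand. Adora2b has 1 start, at chr11:62248734-62249033. Entpd1 has an upstream start, at chr19:40612116-40612415, and a downstream start, at chr19:40659520-40659819. P2rx4 has 1 start, at chr5:122707294-122707593.
Adora2b: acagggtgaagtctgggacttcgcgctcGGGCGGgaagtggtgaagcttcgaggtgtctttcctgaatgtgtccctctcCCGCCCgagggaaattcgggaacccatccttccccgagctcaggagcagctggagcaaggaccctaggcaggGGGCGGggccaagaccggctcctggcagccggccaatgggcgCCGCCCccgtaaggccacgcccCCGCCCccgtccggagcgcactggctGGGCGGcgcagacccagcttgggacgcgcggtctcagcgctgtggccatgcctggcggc
Entpd1 upstream: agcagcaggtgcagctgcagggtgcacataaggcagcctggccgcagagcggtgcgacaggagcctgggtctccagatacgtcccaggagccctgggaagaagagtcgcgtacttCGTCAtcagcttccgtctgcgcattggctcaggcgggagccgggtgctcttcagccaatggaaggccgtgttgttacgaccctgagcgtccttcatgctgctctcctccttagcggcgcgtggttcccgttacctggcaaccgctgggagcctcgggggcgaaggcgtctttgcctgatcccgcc
Entpd1 downstream: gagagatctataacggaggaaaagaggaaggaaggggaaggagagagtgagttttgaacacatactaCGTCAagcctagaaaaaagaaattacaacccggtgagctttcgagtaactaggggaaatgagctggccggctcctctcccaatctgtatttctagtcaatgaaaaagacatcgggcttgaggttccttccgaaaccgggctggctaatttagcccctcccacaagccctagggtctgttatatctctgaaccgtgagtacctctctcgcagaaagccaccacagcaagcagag
P2rx4: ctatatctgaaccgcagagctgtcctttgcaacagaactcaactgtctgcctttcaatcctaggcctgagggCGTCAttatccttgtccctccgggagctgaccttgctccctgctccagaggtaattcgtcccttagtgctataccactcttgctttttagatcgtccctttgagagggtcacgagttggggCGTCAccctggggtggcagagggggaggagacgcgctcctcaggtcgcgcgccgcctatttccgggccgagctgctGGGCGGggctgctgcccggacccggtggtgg

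The windows differed in these letters. The Adora2b window held 6 GC boxes and 0 TGACG, and 1.35% of 32851 promoters of the same length held as many GC boxes. Both Entpd1 windows held 0 GC boxes and 1 TGACG. The P2rx4 window held 1 GC box and 2 TGACG. GC boxes occurred in 35.7% and TGACG in 20.8% of all promoters. These shares depend on base composition, which was 70% G and C for Adora2b, 64% and 48.7% for the upstream and downstream Entpd1 windows and 60.3% for P2rx4. The hypoxia response core ACGTG, in 19.6% of all promoters, and the gamma-activated site TTCNNNGAA, in 8.30%, were searched on both strands and had no match in the 4 windows. A match is a description of letters and says nothing about binding.

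Among the P2Y receptors, P2ry6, the receptor for UDP, was at 31.6 FPKM in the library labelled SIRPα-KO and 88.9 FPKM in WT. About 689 and 1946 reads stand behind these values. The plain log2 ratio was -1.49 with a counting interval of -1.62 to -1.37. With 1 FPKM added it was -1.46, and 174 of the genes kept (1.72%) were as low or lower.

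P2ry14, the receptor for UDP-glucose and other UDP-sugars, was at 48.2 FPKM in SIRPα-KO and 50.9 FPKM in WT. Its plain log2 ratio of -0.08 had a counting interval of -0.21 to 0.05. The order of the uridine-nucleotide receptors therefore differed: P2ry14 was 1.52 times P2ry6 in SIRPα-KO and 0.572 times P2ry6 in WT.

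P2ry2, the receptor for ATP and UTP, was at 6.70 FPKM in SIRPα-KO and 4.12 FPKM in WT. The values stand for about 226 and 140 reads, and the plain log2 ratio of 0.70 had a counting interval of 0.39 to 1.01. With 1 FPKM added the ratio was 0.59, short of 2-fold, and 10.8% of the genes kept were as high or higher. At a limit of 1.5-fold P2ry2 was the 1 gene of the set called higher and the same 3 genes were lower, where 10.9% of all genes kept were higher, 10.2% lower and 21.2% either. P2ry2 and P2ry6 are neighbouring genes on chromosome 7, and both couple to the G protein that activates phospholipase C. Their values lay on opposite sides of equality, so P2ry6 exceeded P2ry2 4.71-fold in SIRPα-KO and 21.6-fold in WT.

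P2ry12, the ADP receptor of platelets and microglia, was at 2.76 FPKM in SIRPα-KO and 1.74 FPKM in WT, from about 69.6 and 44.0 reads. The plain log2 ratio of 0.67 had a counting interval of 0.11 to 1.25, and the ratio with the pseudocount was 0.46. The platelet genes Pf4 and Ppbp were at 148 and 23.2 FPKM in SIRPα-KO, against 37.3 and 12.4 FPKM in WT. The other listed platelet genes, Itga2b, Gp9 and Gp1bb, were at 4.57, 1.14 and 1.12 FPKM in SIRPα-KO. In WT they were at 3.05, 0.90 and 0.70 FPKM, and none of them was called. The part of platelets in the value of P2ry12 was not tested. P2ry13, another ADP receptor that lies between P2ry14 and P2ry12 on chromosome 3, was at 21.9 FPKM in SIRPα-KO and 13.1 FPKM in WT, a log2 ratio with the pseudocount of 0.69. P2ry1, the remaining ADP receptor, was at 1.40 FPKM in SIRPα-KO and 0.52 FPKM in WT. Its log2 ratio with the pseudocount was 0.66, and its plain FPKM ratio was 2.69. P2ry1, P2ry12 and P2ry13 were set together after their values were seen, and none of them was called at 2-fold. At a limit of 1.5-fold P2ry1 and P2ry13 were called higher, as were 10.9% of all genes kept. The locus of P2ry12 to P2ry14 lies inside the gene Med12l on the other strand. Of the exon bases of P2ry12, 9 (0.354%) overlap exons of Med12l. Med12l was at 0.52 FPKM in SIRPα-KO and 0.73 FPKM in WT, and its part in the values of these receptors was not tested.

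Of the P2X channels, P2rx4, an ATP-gated channel that macrophages hold largely in lysosomes, was at 117 FPKM in the library labelled SIRPα-KO and 118 FPKM in WT, the highest level of the set in both. From about 3552 and 3595 reads, the plain log2 ratio was -0.01 with a counting interval of -0.08 to 0.06. P2rx7, the channel that needs high ATP and lets potassium out of the cell, was at 4.49 FPKM in SIRPα-KO and 4.5 FPKM in WT. Its interval of -0.70 to 0.71 is wide because the shortest of its 4 transcripts was used, which gives about 35.8 and 36.0 reads. The ratios with the pseudocount, -0.01 for P2rx4 and -0.003 for P2rx7, changed sign with scaling to the same sum, where they were 0.02 and 0.03. Both genes lie close together on chromosome 5, and P2rx4 exceeded P2rx7 26.1-fold in SIRPα-KO and 26.3-fold in WT.

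The remaining P2X genes were low. P2rx5 was at 1.41 FPKM in SIRPα-KO and 0.50 FPKM in WT, and P2rx1 at 1.21 and 0.47 FPKM in the same order, neither called with 1 FPKM added. P2rx3 and P2rx6 were under 1 FPKM in both libraries.

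**Figure D2:**
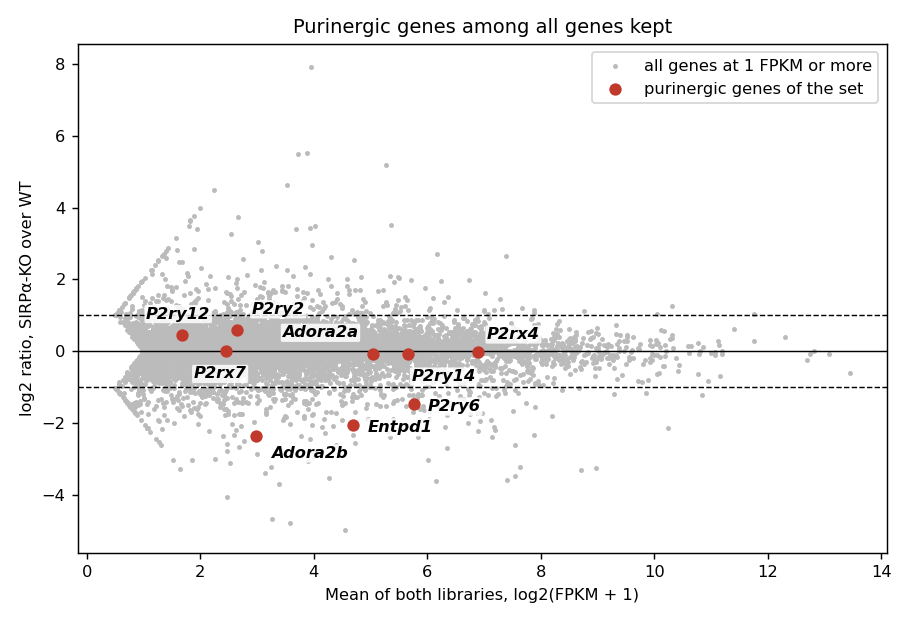
Log2 ratio of SIRPα-KO over WT, with 1 FPKM added, against the mean level of both libraries for all 10092 genes kept (grey), with the 9 kept purinergic genes in red. Dashed lines mark 2-fold, and P2ry6, Entpd1 and Adora2b lie below the lower line at -1.46, -2.04 and -2.37.

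The order of levels differed between the libraries. In the library labelled SIRPα-KO it ran P2rx4, P2ry14, P2ry6, Adora2a, Entpd1, P2ry2, P2rx7, P2ry12, Adora2b and Nt5e. In WT it ran P2rx4, P2ry6, Entpd1, P2ry14, Adora2a, Adora2b, P2rx7, P2ry2, P2ry12 and Nt5e. Some neighbours in these orders had overlapping 95% Poisson intervals. In SIRPα-KO P2ry6 (29.3 to 34.1 FPKM) overlapped Adora2a (29.1 to 33.2 FPKM), P2ry2 overlapped P2rx7, and P2ry12 overlapped Adora2b. In WT Entpd1 (49.7 to 53.8 FPKM) overlapped P2ry14 (47.7 to 54.2 FPKM), and P2rx7 overlapped P2ry2. The 6 nucleotide receptors summed to 211 FPKM in SIRPα-KO and 268 FPKM in WT. P2ry6 alone was at 31.6 and 88.9 FPKM in the same order, so nearly all of the difference of sums lay in it. The other receptors had small differences in FPKM, with P2ry2 and P2ry12 higher and P2rx4, P2rx7 and P2ry14 slightly lower in SIRPα-KO.

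The rest of the purinergic system was read from 9 lists with 73 genes that had a row and were not in the set. Of these 54 were kept, with 2 higher (3.70%), 4 lower (7.41%) and a median log2 ratio of -0.07, beside 3.43% higher and 4.31% lower among all genes kept. At a limit of 1.5-fold, 7 were higher (12.96%) and 11 lower (20.4%), beside 10.9% higher and 10.2% lower among all genes kept. The shares of higher and of lower genes in the lists were both above those over all genes kept, at both limits. At 2-fold the lower share rests on 4 genes, among them Kcnk13, which lay exactly at the limit. The lists were chosen with earlier results of these data known, so nothing is read from these shares about them.

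Of 9 genes of adenosine uptake and conversion 7 were kept, with 0 higher, 1 lower and a median of -0.50. The lower gene was Slc28a2, a transporter that takes up purine nucleosides together with sodium, at 19.4 FPKM in SIRPα-KO and 247 FPKM in WT. Slc28a2 shares 35.4% of its 50-base words with Gm14085, which was at 5.46 FPKM in SIRPα-KO and 0.06 FPKM in WT, so how shared reads were assigned bears on both values. Slc28a2 lies on chromosome 2, as Sirpa does, and distances along it were not compared. The part of this position in the value of Slc28a2 was not tested. Pnp, which splits inosine and guanosine, was the most abundant of the list at 708 FPKM in SIRPα-KO and 791 FPKM in WT, and 18.9% of its words occur in other genes. Its near copy Pnp2 was at 80.05 FPKM in SIRPα-KO and 140.7 FPKM in WT, and was called lower only with a limit of 1.5-fold. Pnp and Pnp2 summed to 789 FPKM in SIRPα-KO and 932 FPKM in WT. Ada, which deaminates adenosine, was at 1.32 FPKM in SIRPα-KO and 1.47 FPKM in WT, and Adk, which phosphorylates it, at 2.30 and 3.39 FPKM in the same order.

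Of 17 genes of the cyclic AMP arm 13 were kept, with 0 higher, 2 lower and a median of -0.08. Adcy7, an adenylyl cyclase of blood cells that makes cyclic AMP downstream of Adora2a and Adora2b, was at 6.56 FPKM in SIRPα-KO and 25.5 FPKM in WT. About 382 and 1489 reads stand behind Adcy7, and its plain log2 ratio of -1.96 had a counting interval of -2.12 to -1.79. Prkar2b, a regulatory subunit of the cyclic AMP-dependent kinase, was at 2.58 FPKM in SIRPα-KO and 10.98 FPKM in WT, a plain log2 ratio of -2.09 with an interval of -2.42 to -1.76. Gnas, which encodes the stimulatory G protein subunit, was at 247 FPKM in SIRPα-KO and 297 FPKM in WT, and the phosphodiesterase Pde4b at 49.6 and 40.6 FPKM in the same order. Vegfa, which adenosine receptors can induce in activated macrophages, was at 11.5 FPKM in SIRPα-KO and 23.6 FPKM in WT. Its ratio with the pseudocount, -0.98, was just short of 2-fold and passed it with 2 of the 3 other scalings.

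Of 3 listed genes of ATP release with a row 2 were kept. Gja1, a connexin that forms gap junctions and hemichannels for ATP, was at 13.2 FPKM in SIRPα-KO and 3.87 FPKM in WT, from about 452 and 134 reads, and was called higher. Panx1, the pannexin channel that releases ATP, was at 7.48 FPKM in SIRPα-KO and 6.31 FPKM in WT. In the list of G proteins, phospholipases and calcium channels of the Gq and Gi arms 10 of 13 genes were kept, with 0 called and a median of -0.03. Gnai2, the most abundant of them, was at 242 FPKM in SIRPα-KO and 281 FPKM in WT. In the P2rx7 arm all 9 genes were kept, with 0 higher, 1 lower and a median of -0.05. Nlrp3, the inflammasome sensor, was at 128 FPKM in SIRPα-KO and 93.1 FPKM in WT, and Il1b, its cytokine product after cleavage, at 197 and 243 FPKM in the same order. The lower gene was Kcnk13, a potassium channel, at 0.32 FPKM in SIRPα-KO and 1.64 FPKM in WT. Kcnk13 lay exactly at the 2-fold limit with 1 FPKM added, and was not called when the libraries were scaled to the same sum or with a minimum of 5 FPKM, which it did not reach in either library.

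**Figure D3:**
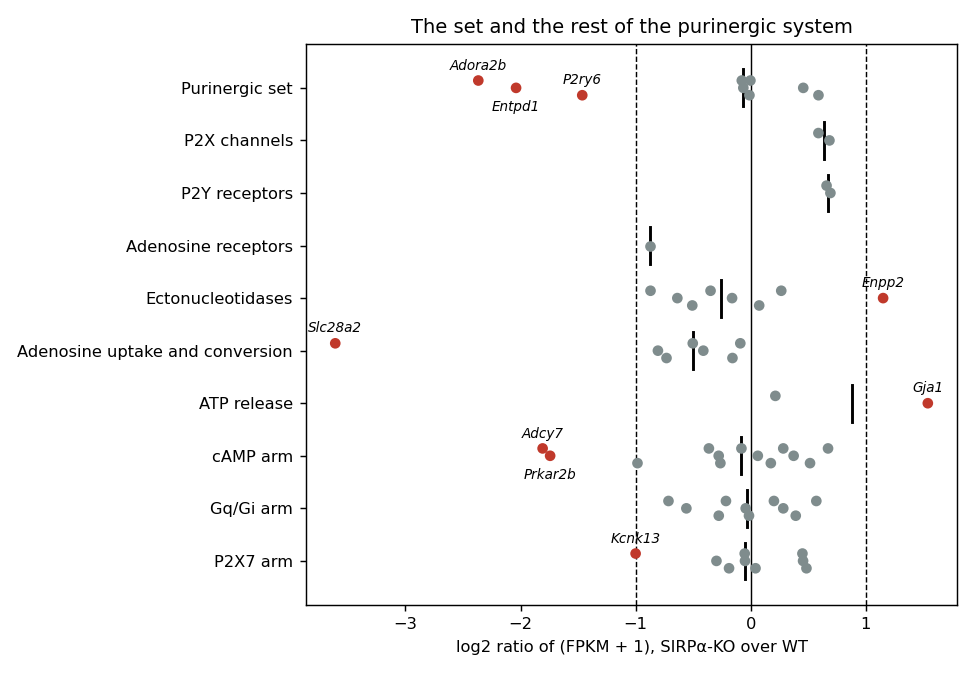
Log2 ratio of SIRPα-KO over WT, with 1 FPKM added, for each kept gene of the purinergic set and of 9 other purinergic lists. Red points are genes called at 2-fold, grey points are not called, black bars are list medians and dashed lines mark 2-fold; most genes outside the set lie between the dashed lines.

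Set side by side, the genes around adenosine that lay farthest below equality were Slc28a2, Adora2b, Entpd1, Prkar2b and Adcy7, and each of their counting intervals lay wholly below -1 on the plain log2 scale. Those of P2rx4, P2ry14, Adora2a and P2rx7 included 0. The genes named as lowest belong to different steps, namely nucleoside uptake, receptor, surface enzyme, kinase subunit and cyclase. They were put together after their values were seen. Most genes of the lists they came from were not called. These were 11 of 13 kept in the cyclic AMP arm and 6 of 7 kept in adenosine uptake and conversion. The list medians were -0.08 and -0.50 with 1 FPKM added.

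**Figure D4:**
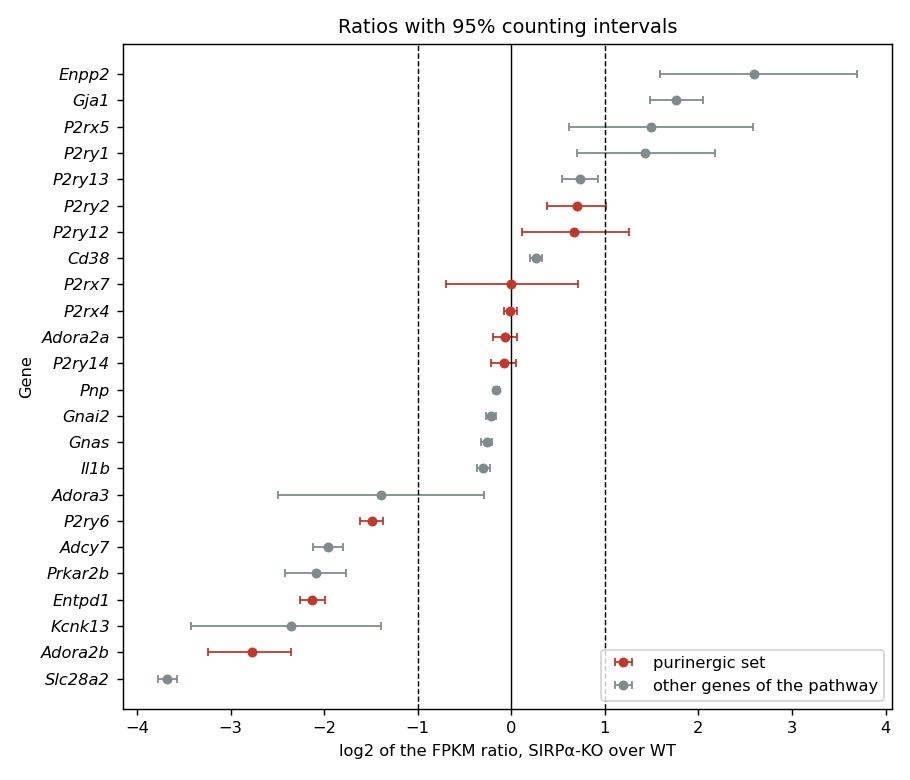
Plain log2 FPKM ratio of SIRPα-KO over WT with 95% counting intervals for the 9 kept genes of the purinergic set (red) and for other named genes of the pathway (grey), ordered from high to low. P2ry6, Entpd1 and Adora2b lie below -1 with their whole intervals, and the intervals of P2rx4, P2rx7, P2ry14 and Adora2a cross 0.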

How the data were processed

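RNA of 2 libraries, each a pool of 5 mice, was analysed from 1 deposited table per library. The tables name no unit. The deposited values were taken as FPKM, inferred from unequal sums (433460 in SIRPα-KO and 444294 in WT) and from low values that step with transcript length. Per the submitters' processing notes, the mm9 genome, R 3.3.3 and DESeq2 were used, with no role given. Which aligner, counter and annotation were used, and whether strand was read, is not given in the sources used here. Levels on this scale depend on the abundant genes of a library, which the alternative scalings address.

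Depth was estimated as the number of reads at which low values of genes with 1 transcript came closest to whole reads. About 64.1% (SIRPα-KO) and 64.0% (WT) of these values were within 0.15 of a whole read, against 30% with no step. Too many values fell between whole reads for a count test. Estimated reads use the shortest listed transcript in GENCODE release 21 for mouse, and 15929 rows had a length. Intervals are 95% exact Poisson (levels) and exact binomial (ratios), and cover counting error only.

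The log2 ratio is log2(FPKM + 1) in SIRPα-KO minus that in WT, with genes under 1 FPKM in both libraries left out and a limit of 2-fold for a call. With 1 library per group no test was possible. Pathway genes were named when called (up to 3 per direction and list) or when most abundant in their list, and others after their values were seen. Patterns like a gene's own were not ranked, since 2 libraries give 1 ratio per gene. The genes and lists were chosen with earlier results of these data known. Gene numbers were matched to a RefSeq table of GRCm38, which held 16211 of them and is later than mm9, so it gave chromosomes, neighbours and promoters only. Shared sequence was counted as 50-base words. Alternatives were a pseudocount of 0.1, no minimum or one of 5 FPKM, 3 other scalings and a limit of 1.5-fold. Python 3.11.15, pandas 2.3.3 and scipy 1.17.1 were used.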

Additional observations from a re-analysis of the deposited data

How the results depend on the processing

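The 3 lower calls (P2ry6, Entpd1 and Adora2b) were the same genes with a pseudocount of 0.1 FPKM, with no minimum, with a minimum of 5 FPKM, and with scaling to the same sum, by the median of ratios or by a trimmed mean. With a limit of 1.5-fold, P2ry2 became the 1 gene called higher and the 3 lower calls remained. Across pseudocounts and scalings the log2 ratio ranged over -2.72 to -2.34 for Adora2b, -2.12 to -2.01 for Entpd1 and -1.53 to -1.43 for P2ry6. The scalings shifted all log2 ratios by at most 0.07.

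Counts moved by over 1.5 times under 3 settings, because low values weigh more, fewer genes are tested or the limit is lower. With a pseudocount of 0.1 FPKM, 5 pathway genes were higher and 8 lower, and over all genes 589 were higher and 677 lower. With a minimum of 5 FPKM, 1 pathway gene was higher, since Enpp2 was left out, and Kcnk13 was left out of those lower. With a limit of 1.5-fold, 7 pathway genes were higher and 11 lower, and over all genes 1104 were higher and 1034 lower. For single genes 11 of 92 values moved by more than the counting error, none of them to the other side of equality for a called gene. No paired analysis was possible because each genotype has 1 library, and no library could be left out.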
